A study of Mus musculus with 6 samples.

Results

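ETS transcription factors share a DNA-binding domain that recognises a GGAA core, and 9 of them that are active in early thymocytes were followed here: Ets1, Ets2, Spi1 (PU.1), Spib, Fli1, Erg, Elf1, Gabpa and Etv6. They were read by every probe set that the array annotation gives to 1 of these genes and to no other gene, which came to 19 of the 45101 probe sets of the table. Ets1 had 4 probe sets, Ets2 had 3, Spi1 and Spib had 1 each, and the other members had 2 each. The arrays held RNA of DN2 cells sorted from fetal thymus, 3 arrays of E2A-deficient and 3 of wild-type cells, all on the FVB mouse background. DN2 cells are thymocytes without CD4 or CD8 that are still choosing the T lineage. E2A is the name of the E protein transcription factors made by Tcf3, and the labels state the deficiency without the allele, the age of the fetuses or the number of animals pooled. The question was which of these ETS genes differ in level when DN2 cells lack E2A.

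As background, the family divides the early thymus between outgoing and incoming programmes. PU.1 and SpiB belong to the progenitor, myeloid and B-cell side and are shut down as thymocytes commit, while Fli1, Erg and Etv6 are factors of stem and progenitor cells that overlap with that phase. Ets1 is the family member most tied to lymphocytes and works beside Runx factors at T-cell receptor gene enhancers, and Elf1 and the GABP complex act in T cells and in many others. E proteins bind a different sequence, the E-box, whose core is CANNTG.

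Ets1 and Etv6 were lower in E2A-deficient cells, and no member was higher. Of the 19 probe sets, 4 fell, 0 rose and 15 did not pass (limma fit over 45037 probe sets, Benjamini-Hochberg adjusted p under 0.05). The 4 were 3 of Ets1 and 1 of Etv6. Of all probe sets, 0.580% fell and 1.21% rose by the same rule, 1.79% in all. This share, like those over all probe sets below, mixes bright and dim ones, while 18 of the 19 were brighter than the median probe set. A fit of only the brighter probe sets called 887, 296 of them lower, against 804 and 261 in the fit over all. The same 4 member probe sets were called in it. The member counts are thus not set against probe sets of like brightness. At an unadjusted p under 0.05, 9 member probe sets were lower and 0 were higher, and 12.5% of all probe sets passed that mark in either direction. The median log2 change of the 19 was -0.16, against 0.0039 over all probe sets, and 17 of the 19 lay below 0, as did 48.2% of all probe sets. In 10 of the 19, from 7 of the 9 genes, all 3 E2A-deficient arrays lay below all 3 wild-type arrays, which held for 6.79% of all probe sets. In 0 of the 19 did all E2A-deficient arrays lie above all wild-type arrays, an order that 10.1% of all probe sets had. With 1 probe set per gene, the brightest, Ets1 and Etv6 fell and 0 members rose (limma adjusted over 18193 genes), and 1.06% of all genes fell and 2.40% rose in that fit. The brightest probe sets of Ets1 and Etv6 are among the 4 called above, so this fit repeats their values under another adjustment. Probe sets of 1 gene share their target and are not independent. Values per array are given as linear intensities, and changes as the log2(intensity + 1) of E2A-deficient arrays less that of wild-type arrays.

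**Figure D1:**
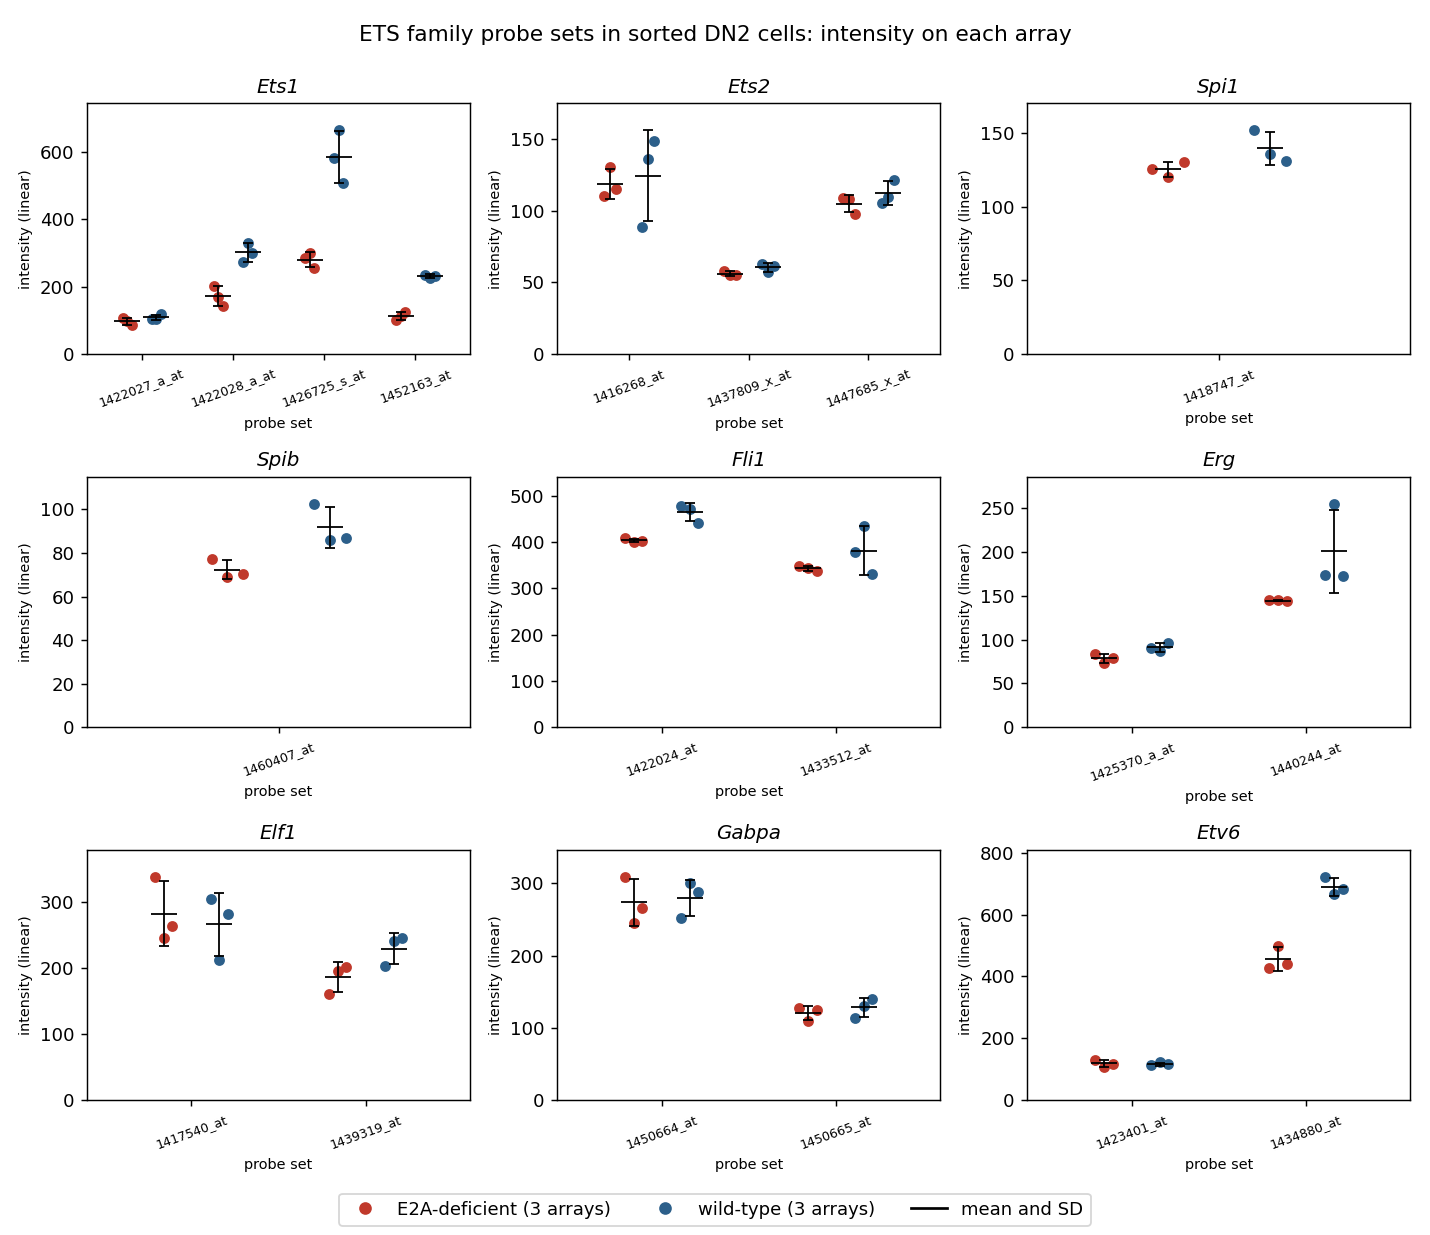
Linear intensity (y axis) of each probe set (x axis) of the 9 ETS genes on each array, with E2A-deficient arrays in red at the left of each pair and wild-type arrays in blue at the right, and the mean and SD of 3 arrays in black. The groups stand far apart in 3 probe sets of Ets1 and in Etv6 probe set 1434880_at, while those of Ets2, Gabpa and Elf1 probe set 1417540_at overlap.

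The target itself was checked before the members. Tcf3 had intensities of 236, 229 and 281 in E2A-deficient cells, against 477, 421 and 414 in wild-type cells, on its brightest probe set, a log2 change of -0.81 that passed (SE 0.0952, limma adjusted p = 0.00864) and missed the threshold only with the beta-actin covariate (0.150, the highest of its alternatives, the lowest being 0.00332). The sources used here do not say whether that probe set lies in the deleted part of the gene. Of 7 measured E and Id protein genes Tcf3 fell, Id2 rose and 5 did not pass. Id2 gave 388, 435.5 and 502 in E2A-deficient cells, against 149, 178 and 159 in wild-type cells, on its brightest probe set (log2 change 1.44, SE 0.107, limma adjusted p = 0.00149). The other Id2 probe sets did not pass. Of the 8 DN2 marker genes, Kit, which encodes the stem-cell-factor receptor, Il2ra, which encodes CD25, and Cd44 had overlapping groups and did not pass, with limma adjusted p of 0.363, 0.869 and 0.887. Cd24a, which encodes the surface protein CD24, gave 2847, 2511 and 2736 in E2A-deficient cells, against 2311, 2481 and 2161 in wild-type cells, on its brightest probe set. Its groups did not overlap there or on 1416034_at, and neither change passed (log2 0.22 and 0.38, unadjusted p 0.0217 and 0.0423, limma adjusted p 0.268 and 0.371). Il7r (-0.37), Ptcra (-0.14) and Dntt (0.09) had overlapping groups on their brightest probe sets and did not pass. The surface glycoprotein gene Thy1 fell (log2 change -1.32, SE 0.114, limma adjusted p = 0.00257). Cd4, Cd8a and Cd8b1 were dim, with none of the 3 above the upper quartile of the arrays on all of them. Array medians lay between 77.4 and 79.0 and upper quartiles between 131 and 136. The log2 ratio of the 5' to the 3' beta-actin control depends on how intact the RNA was and on how completely it was copied. This ratio was -2.60 to -2.74 on the E2A-deficient arrays and -3.26, -2.63 and -3.35 on wild-type arrays 1, 2 and 3. Only wild-type replicate 2 thus matched the E2A-deficient arrays. The wild-type arrays also differed among themselves in Xist and in the Y-linked Eif2s3y, genes that tell female from male cells. On wild-type arrays 1, 2 and 3 Xist was 3055, 4456 and 58.7, and Eif2s3y was 204, 58.0 and 343. The E2A-deficient arrays had 1247 to 2154 for Xist and 208 to 339 for Eif2s3y. In bulk RNA, fewer cells that express a gene and less of its RNA per cell cannot be told apart.

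Ets1 had the largest change among the members. Its brightest probe set, 1426725_s_at, gave 286, 302 and 255 in E2A-deficient cells, against 582, 665 and 509.6 in wild-type cells. Every E2A-deficient array lay well under the lowest wild-type array. The mean was 281 ± 23.5 in E2A-deficient cells and 586 ± 77.6 in wild-type cells (SD, n = 3 each). In the fit it was 51.8% lower (log2 -1.05, SE 0.108, limma adjusted p = 0.00501). Probe set 1452163_at gave 101, 113 and 126 in E2A-deficient cells, against 236, 226 and 232 in wild-type cells. The spread within each group was again small beside the gap, and the log2 change was -1.03 (SE 0.0838, limma adjusted p = 0.00202).

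The other Ets1 probe sets were less uniform. Probe set 1422028_a_at gave 204, 169.7 and 144 in E2A-deficient cells, against 274, 331 and 301 in wild-type cells. These groups did not overlap either, and the log2 change was -0.81 (SE 0.129, limma adjusted p = 0.0287). Probe set 1422027_a_at, the dimmest of the 4, gave 107, 98.8 and 86.5 in E2A-deficient cells, against 106, 104 and 119 in wild-type cells. Its groups overlapped and its log2 change of -0.16 (95% interval -0.38 to 0.06) did not pass (limma adjusted p = 0.583). The annotation gives 1422027_a_at and 1422028_a_at the same sequence record, and the other pair another one. Probe set 1422027_a_at thus stood apart both from the one that shares its record and from the pair of the other record. The difference between these probe sets was not tested.

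The Ets1 calls of 1426725_s_at and 1452163_at held with any 1 array left out. Probe set 1422028_a_at missed the threshold when E2A-deficient replicate 2 (limma adjusted p = 0.0941) or 3 (0.0699) or wild-type replicate 2 (0.0940) or 3 (0.0870) was left out, with a range of 0.00822 to 0.131 over its alternatives. With the beta-actin covariate 1426725_s_at kept its call (-1.25, limma adjusted p = 0.0180), while 1452163_at (-0.97, 0.0522) and 1422028_a_at (-0.97, 0.131) did not, and over their alternatives the adjusted p of 1426725_s_at was 7.67e-04 to 0.0244 and that of 1452163_at 3.51e-04 to 0.0522. Against wild-type replicate 2 alone, whose beta-actin ratio matched, the mean of the 3 E2A-deficient arrays was lower by a log2 change of -1.24, -0.99 and -0.95 in 1426725_s_at, 1452163_at and 1422028_a_at, in that order. That replicate is 1 array and did not match in the sex-linked genes. Its Xist was 4456 and its Eif2s3y 58.0, against 1247 to 2154 and 208 to 339 on the E2A-deficient arrays.

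**Figure D2:**
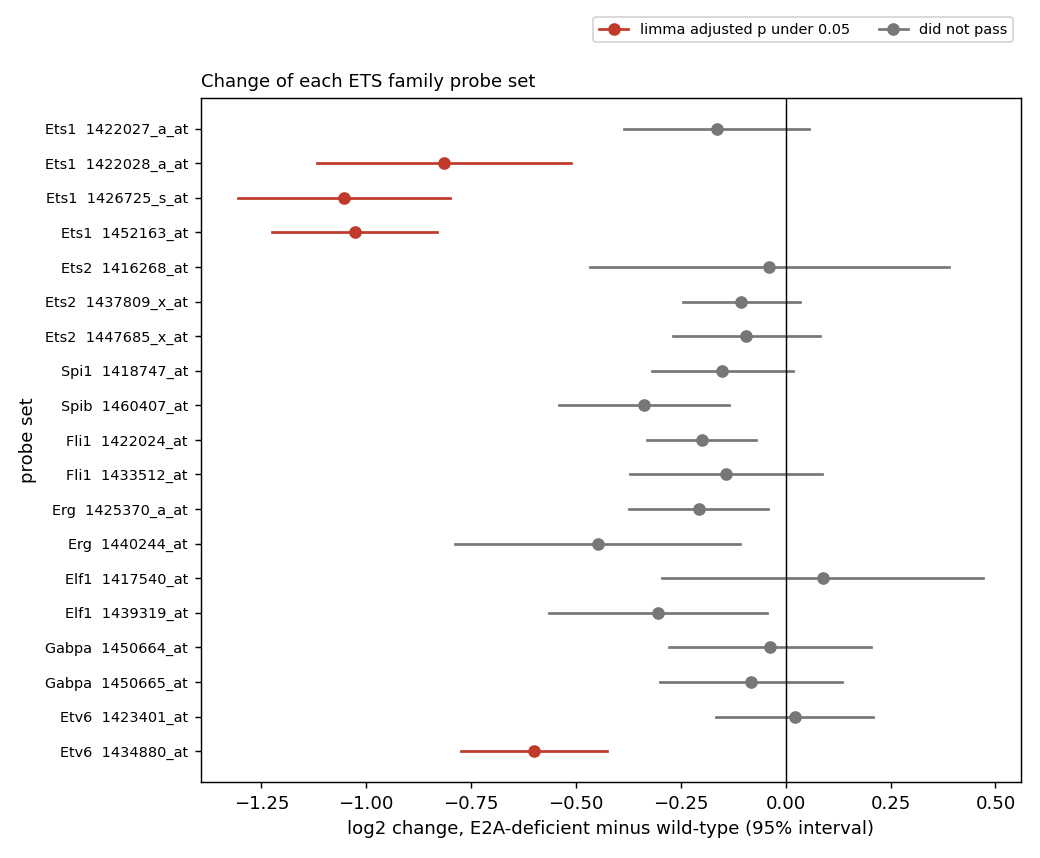
log2 change, E2A deficient minus wild type, with its 95% interval (x axis) for each of the 19 probe sets (y axis), in red where the limma adjusted p was under 0.05. The 3 red points of Ets1 lie between -1.05 and -0.81 and that of Etv6 at -0.60, and the points in grey lie between -0.45 and 0.09.

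Etv6, a repressor of the family that blood stem cells of the bone marrow need and that is a frequent partner in leukaemia fusions, was the other member that fell. Probe set 1434880_at, the brightest of the 19, gave 427, 499 and 440.3 in E2A-deficient cells, against 722, 666 and 681 in wild-type cells. The lowest wild-type array stood well above the highest E2A-deficient array. The log2 change was -0.60 (SE 0.0744, limma adjusted p = 0.0113), or 34.0% lower. The other probe set, 1423401_at, was dimmer and gave 131, 108 and 119 in E2A-deficient cells, against 113, 123 and 116 in wild-type cells. Its groups overlapped, and its log2 change of 0.02 (95% interval -0.17 to 0.21) did not pass (limma adjusted p = 0.970). The mean of the 2 probe sets still fell in the fit per gene (-0.29, limma adjusted p = 0.0118). The call of 1434880_at held under 14 of 17 alternatives. Among the others, it was lost without E2A-deficient replicate 3 (-0.58, limma adjusted p = 0.0549) and with the beta-actin covariate (-0.56, 0.170), with a range of 0.00855 to 0.170 over its alternatives.

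The Etv6 promoter is shown because Etv6 is a member that fell and has an entry in the promoter table. It is the 250 bases before the gene's start from RefSeq, GRCm38.p6, chr6:134035450-134035699, plus strand, with each GGAA or its complement TTCC, the ETS core, in capitals.
Etv6: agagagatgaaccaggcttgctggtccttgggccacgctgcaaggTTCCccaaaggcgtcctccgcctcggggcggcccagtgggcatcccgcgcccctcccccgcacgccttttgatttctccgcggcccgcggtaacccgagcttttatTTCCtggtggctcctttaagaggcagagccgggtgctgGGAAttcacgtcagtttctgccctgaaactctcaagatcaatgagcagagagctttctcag
These bases held 3 GGAA matches and no CANNTG match on either strand. At least 3 GGAA matches were present in 54.7% of 32841 promoters of the same length, and at least 1 CANNTG match in 66.2% of them. A missing match says only that these letters are not in this window.

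PU.1 and SpiB, the members of the progenitor side, did not pass. Spi1 gave 126, 120.4 and 130.5 in E2A-deficient cells, against 152, 136 and 131 in wild-type cells. The highest E2A-deficient array and the lowest wild-type array were nearly level, although the groups did not overlap. The log2 change was -0.15 (95% interval -0.32 to 0.02, limma adjusted p = 0.467). Spib gave 77.3, 69.0 and 70.5 in E2A-deficient cells, against 103, 85.8 and 86.8 in wild-type cells. These groups did not overlap and stood near the array medians, and the log2 change of -0.34 (95% interval -0.54 to -0.14) did not pass over all probe sets (limma adjusted p = 0.133, range over its alternatives 0.0684 to 0.654). Among 9 measured B-lineage markers limma called 0, and 0 of the 9 were above the upper quartile on all arrays. At an unadjusted p under 0.05 there was 1, Vpreb1. It was lower in E2A-deficient cells with no overlap of the groups (log2 -0.32, limma adjusted p = 0.0806). Their summed intensity was 712 to 736 in E2A-deficient cells and 752 to 761 in wild-type cells. Of the 7 plasmacytoid dendritic markers, cells in which SpiB is also active, 0 rose or fell and 0 had an unadjusted p under 0.05, with sums of 734 to 778 in E2A-deficient cells and 746 to 758 in wild-type cells. Of the 13 myeloid markers Lyz2 fell and 12 did not pass, with 2 at an unadjusted p under 0.05. These were Lyz2 and Cd68, which was higher with no overlap of the groups (log2 0.18, unadjusted limma p 0.0167, limma adjusted p = 0.237). The sums were 1855 to 2086 in E2A-deficient cells and 1696 to 1976 in wild-type cells. Of these, Mpo alone gave 938 to 1202 and 829 to 1030. The part of B-lineage, plasmacytoid dendritic and myeloid cells in the Spib and Spi1 values was not tested.

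Erg and Fli1, which work with Runx1, Lyl1 and the LIM-domain protein Lmo2 in blood progenitors, did not pass, although the groups did not overlap on 3 of their 4 probe sets. Erg probe set 1440244_at gave 145, 145 and 144 in E2A-deficient cells, against 173, 255 and 173 in wild-type cells. Wild-type replicate 2 stood above the other arrays, and the log2 change was -0.45 (95% interval -0.79 to -0.11, limma adjusted p = 0.237). Without that array the change was -0.26, and with the beta-actin covariate it was -0.78 and passed (limma adjusted p = 0.0340, range over its alternatives 0.0340 to 0.471). Erg probe set 1425370_a_at gave 83.7, 73.2 and 79.3 in E2A-deficient cells, against 90.3, 86.6 and 96.1 in wild-type cells. The groups did not overlap, and the log2 change of -0.21 did not pass (limma adjusted p = 0.263).

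Fli1 was among the brighter members. Probe set 1422024_at gave 408, 399.5 and 403 in E2A-deficient cells, against 478, 471 and 442 in wild-type cells. The groups did not overlap, but the gap was small, with a log2 change of -0.20 (95% interval -0.33 to -0.07, limma adjusted p = 0.163). After quantile normalization this change was -0.27 and passed (limma adjusted p = 0.0494, range over its alternatives 0.0494 to 0.524). Probe set 1433512_at gave 348, 345 and 337 in E2A-deficient cells, against 379.5, 435 and 330.3 in wild-type cells, with overlapping groups and a log2 change of -0.14 (limma adjusted p = 0.680). This change was -0.04 without wild-type replicate 2, -0.24 without wild-type replicate 3 and -0.33 with the beta-actin covariate, and it did not pass in any of these. Endothelial cells also use Fli1, Erg and Ets1: limma called 0 of 9 endothelial markers, 0 reached an unadjusted p under 0.05 and 6 were below the array median on all arrays, with sums of 693 to 729.9 in E2A-deficient cells and 688 to 760.2 in wild-type cells. Of 5 measured megakaryocyte markers 0 rose or fell and 2 had an unadjusted p under 0.05, both higher in E2A-deficient cells. These were Itga2b (log2 0.46, unadjusted limma p 0.0281) and Gp1bb on 1422977_at (0.30, 0.00439), whose brightest probe set changed by -0.01. The sums were 714 to 936 in E2A-deficient cells and 612 to 692 in wild-type cells. Of these, Itga2b alone gave 399 to 628 and 310 to 403. The part of megakaryocyte cells in the Fli1 and Erg values was not tested.

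Promoters of Spib and Erg are shown because their groups did not overlap on any probe set and 1 promoter of each holds CANNTG letters. The other 2 Erg promoters of the table hold 0 such matches. Both are the 250 bases before the start from RefSeq, GRCm38.p6, minus strand, chr7:44532072-44532321 for Spib and chr16:95459349-95459598 for the Erg promoter 3 of 3, with CANNTG in capitals.
Spib: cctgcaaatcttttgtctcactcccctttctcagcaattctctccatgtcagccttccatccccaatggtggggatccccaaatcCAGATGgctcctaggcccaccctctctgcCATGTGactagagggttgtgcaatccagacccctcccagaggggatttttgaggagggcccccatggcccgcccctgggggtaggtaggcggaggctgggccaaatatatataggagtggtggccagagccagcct
Erg: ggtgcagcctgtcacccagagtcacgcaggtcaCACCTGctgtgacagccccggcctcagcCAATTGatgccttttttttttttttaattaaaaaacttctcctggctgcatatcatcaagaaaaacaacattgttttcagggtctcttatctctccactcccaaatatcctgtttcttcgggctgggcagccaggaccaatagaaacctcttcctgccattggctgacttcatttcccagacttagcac
In Spib the letters were CAGATG 165 bases and CATGTG 136 bases before the start, and in Erg CACCTG 217 bases and CAATTG 189 bases before it. At least 2 such matches were present in 31.8% of the 32841 promoters. The promoters shown were picked for holding such letters, so this share is no test of them. CACCTG is CAGGTG read on the other strand, a form present in 17.2% of promoters. Over the 6 members with an entry in the table, which gave 9 promoters, 3 promoters held CANNTG (66.2% of all promoters) and 2 held CAGGTG (17.2%). Of the 9, 0 held CAGCTG (13.0% of all promoters) and 7 held GGAA (93.5% of all promoters). A CANNTG match includes any CAGCTG or CAGGTG match. The Etv6 promoter held no CANNTG match, and Elf1 held 3 in 1 of its 2 promoters. Ets1, which had the largest change, had no entry, and neither did Spi1 and Fli1. Whether these letters go with the changes was not tested.

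Ets2, Gabpa and Elf1 did not pass on any probe set. Ets2, the closest relative of Ets1, gave 111, 130.2 and 115 in E2A-deficient cells, against 88.8, 136 and 149 in wild-type cells, on probe set 1416268_at. Its groups overlapped widely, and its 3 log2 changes of -0.04, -0.11 and -0.09 all had intervals that reached past 0. The widest of these ran from -0.47 to 0.39, so a change of the size seen in Ets1 lay outside it. Probe set 1437809_x_at of Ets2 was the only member probe set dimmer than the median probe set.

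Gabpa, the DNA-binding subunit of GABP, gave 309, 245 and 266 in E2A-deficient cells, against 253, 301 and 287 in wild-type cells, on probe set 1450664_at. The groups overlapped, and the log2 changes of its probe sets were -0.04 (95% interval -0.28 to 0.20) and -0.08 (-0.30 to 0.13), with limma adjusted p of 0.955 and 0.844. Its partner subunit genes Gabpb1 (-0.06) and Gabpb2 (-0.08), on their brightest probe sets, did not pass either. The dimmer Gabpb2 probe set 1440289_at was lower with no overlap of the groups and did not pass (log2 -0.17, unadjusted limma p 0.0256, limma adjusted p = 0.291).

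Elf1, a factor of T-cell and stem-cell genes, gave opposite signs on its probe sets. Probe set 1417540_at gave 338, 245 and 264 in E2A-deficient cells, against 304, 212 and 282 in wild-type cells. The arrays numbered 2 were the lowest of both groups, the groups overlapped, and the log2 change was 0.09 (95% interval -0.30 to 0.47). Probe set 1439319_at gave 160.3, 196 and 202 in E2A-deficient cells, against 203, 241 and 245 in wild-type cells. Its groups did not overlap by a narrow margin, and the log2 change of -0.30 (95% interval -0.56 to -0.04) did not pass (limma adjusted p = 0.304).

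The rest of the family held 17 further ETS genes, of which 15 were measured, 2 rose, 0 fell and 13 did not pass, with 4 at an unadjusted p under 0.05. Of all genes, 2.20% had a probe set that rose and 1.02% one that fell. The median log2 change of the brightest probe sets was 0.01, against 0.02 over all genes and -0.20 over the 9 members. Etv3, a repressor of the family, gave 226, 227 and 241 in E2A-deficient cells, against 162, 181 and 161 in wild-type cells, so that it rose by 0.46 on the log2 scale (SE 0.0676, limma adjusted p = 0.0217). The other 3 Etv3 probe sets did not pass. Etv5, of the PEA3 group, gave 100.7, 88.1 and 97.5 in E2A-deficient cells, against 67.3, 69.2 and 54.4 in wild-type cells, so that it rose by 0.58 on the log2 scale (SE 0.103, limma adjusted p = 0.0418). The other 2 Etv5 probe sets did not pass. The wild-type values of the called one lay below the array medians. Etv5 lost its call when any 1 array was left out (limma adjusted p 0.0569 to 0.149) and Etv3 when any array but wild-type replicate 2 was (0.0618 to 0.0902), with ranges over their alternatives of 0.00479 to 0.391 and 0.0186 to 0.235. Elf2, named after its values were seen, had the lowest change of this list, -0.45, and did not pass (limma adjusted p = 0.0677).

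**Figure D3:**
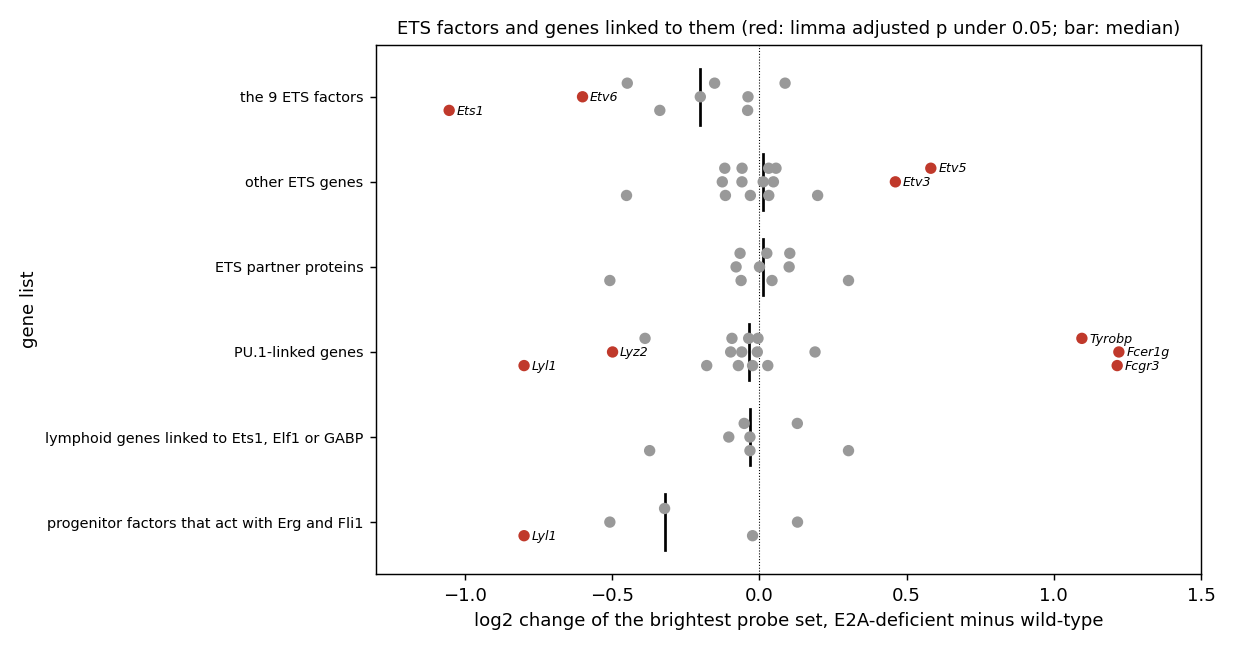
log2 change of the brightest probe set of each gene (x axis, E2A deficient minus wild type) for the 9 ETS factors and 5 lists of genes linked to them (y axis), with genes at a limma adjusted p under 0.05 in red and the median of each list as a bar. Ets1 and Etv6 stand at the left, Etv3 and Etv5 at the right, and Fcgr3, Fcer1g and Tyrobp lie beyond 1.

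Genes that PU.1 is known to drive in myeloid cells or that accompany it in early thymocytes split. Of the 17 measured, 3 rose, 2 fell and 12 did not pass, with 6 at an unadjusted p under 0.05, and the median log2 change was -0.04. The 3 that rose encode an Fc receptor and the signalling adaptors of such receptors, which NK and innate lymphoid cells use too. Fcer1g gave 451, 366 and 501 in E2A-deficient cells, against 188, 177 and 194 in wild-type cells (log2 change 1.22, SE 0.113, limma adjusted p = 0.00348). Fcgr3 changed by 1.22 and Tyrobp by 1.10, with no overlap of the groups in either. The 2 that fell were Lyl1, an E protein partner of progenitors, with 811, 755 and 746 in E2A-deficient cells, against 1397, 1337 and 1289 in wild-type cells (-0.80, SE 0.0609, limma adjusted p = 0.00160), and the lysozyme gene Lyz2, with 71.2, 72.3 and 83.3 in E2A-deficient cells, against 109, 104 and 108 in wild-type cells (-0.50, SE 0.0733, limma adjusted p = 0.0222). The growth factor receptor genes Csf1r (-0.07), Csf2ra (-0.04) and Csf3r (-0.0042), which need PU.1 in myeloid cells, had overlapping groups and did not pass. Lyz2 lost its call when any array but E2A-deficient replicate 3 was left out (limma adjusted p 0.0637 to 0.0822, range over its alternatives 0.00747 to 0.263), and Fcer1g, Fcgr3 and Tyrobp lost theirs with the beta-actin covariate (0.0522, 0.0558 and 0.104, the highest over the alternatives of each, whose lowest were 2.80e-04, 1.47e-04 and 5.89e-04).

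Of 10 proteins that pair with ETS factors 0 rose or fell by limma, with 2 genes at an unadjusted p under 0.05 (Runx1 and Gabpb2), and the median log2 change was 0.01. Runx1, the partner of Ets1 and of Erg and Fli1, named after its values were seen, gave 578, 470.0 and 427 in E2A-deficient cells, against 786, 682 and 621 in wild-type cells, on its brightest probe set. The groups did not overlap, and the log2 change of -0.51 did not pass (limma adjusted p = 0.132). Among 7 measured lymphoid genes linked to Ets1, Elf1 or GABP limma called 0, and 0 reached an unadjusted p under 0.05. Among them, Il7r, a gene that GABP supports, changed by -0.37 and the Runx factor gene Runx3 by 0.30, and neither passed. Of the 5 progenitor factors that act with Erg and Fli1, 1 fell, Lyl1, and 4 did not pass, with 3 genes at an unadjusted p under 0.05 (Lyl1, Runx1 and Tal1) and a median log2 change of -0.32.

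The profiles nearest to Ets1 and Etv6 were found by the root-mean-square distance between log2 values centred on each probe set's mean over the 6 arrays, among 18953 probe sets with 1 gene that were brighter than the median. The adaptor gene Lat was nearest to Ets1 probe set 1426725_s_at (distance 0.0869 on the log2 scale), with 151, 149 and 135 in E2A-deficient cells, against 326, 317 and 287 in wild-type cells. Ly6e (0.108), Uck2 (0.112), Pik3ip1 (0.131) and Rabgap1l (0.133) followed. The nearest to Etv6 probe set 1434880_at were E130308A19Rik (0.0400), Epb41l4b (0.0482), Ldlrad4 (0.0619), Pcmtd1 (0.0683) and Armcx3 (0.0699). All 10 were lower in E2A-deficient cells with no overlap of the groups, as the choice by distance brings with it.

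**Figure D4:**
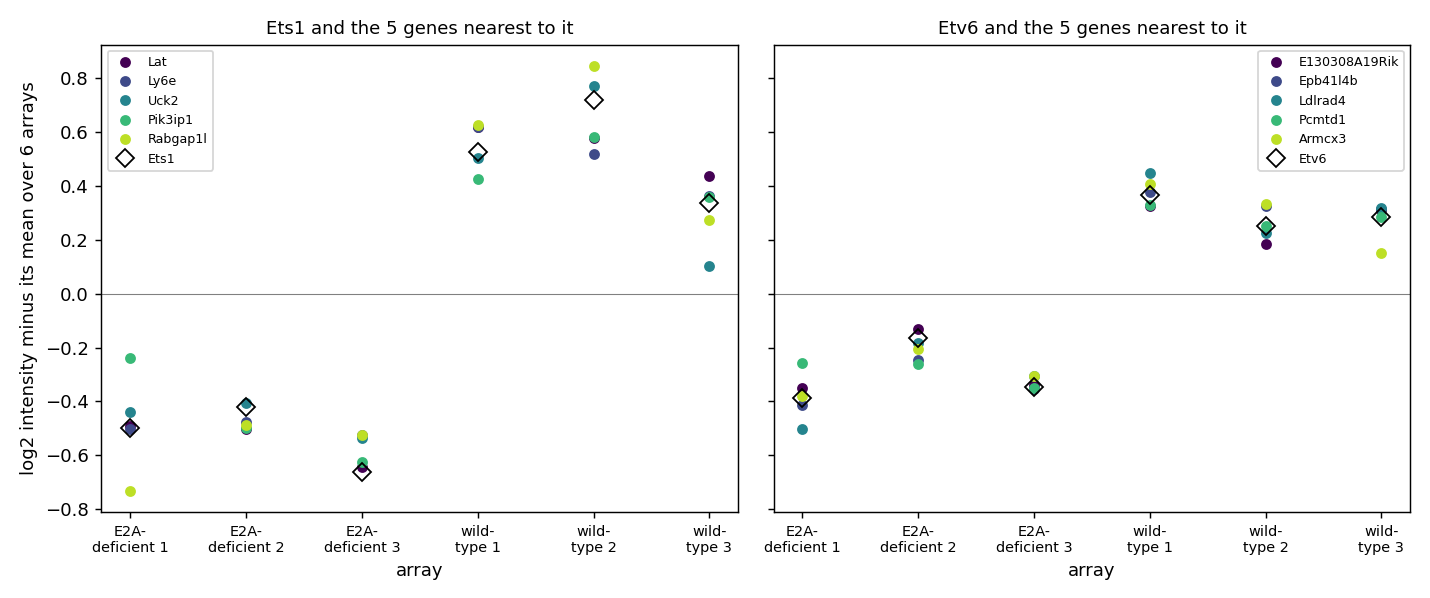
log2 intensity minus its mean over the 6 arrays (y axis) on each array (x axis, E2A deficient at the left) for Ets1 probe set 1426725_s_at, Etv6 probe set 1434880_at (open diamonds) and the 5 genes nearest to each (filled points). All E2A-deficient points lie below 0 and all wild-type points above it.

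Ets1 and Fli1 are neighbours on chromosome 9, and Erg and Ets2 are neighbours on chromosome 16, by gene order in the RefSeq table. In the first pair Ets1 changed by -1.05 and Fli1 by -0.20 on their brightest probe sets, and their 95% intervals, -1.31 to -0.80 and -0.33 to -0.07, did not overlap. In the other pair Erg changed by -0.45 and Ets2 by -0.04, and neither passed. Among the 3 protein-coding genes on each side of each member, 42 distinct genes that are not members, 39 were measured, of which 2 rose and 1 fell, beside 2.20% and 1.02% of all genes. Rapsn (0.57, limma adjusted p = 0.0420) and Psmc3 (0.50, 0.0386), both near Spi1, rose, and Arhgap32 near Fli1 fell (-0.54, 0.0476). Kirrel3 and St3gal4, next to Ets1 on the side away from Fli1, changed by 0.05 and -0.09 and did not pass, and neither did Bcl2l14 (-0.02) and Lrp6 (-0.06) beside Etv6.

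**Figure D5:**
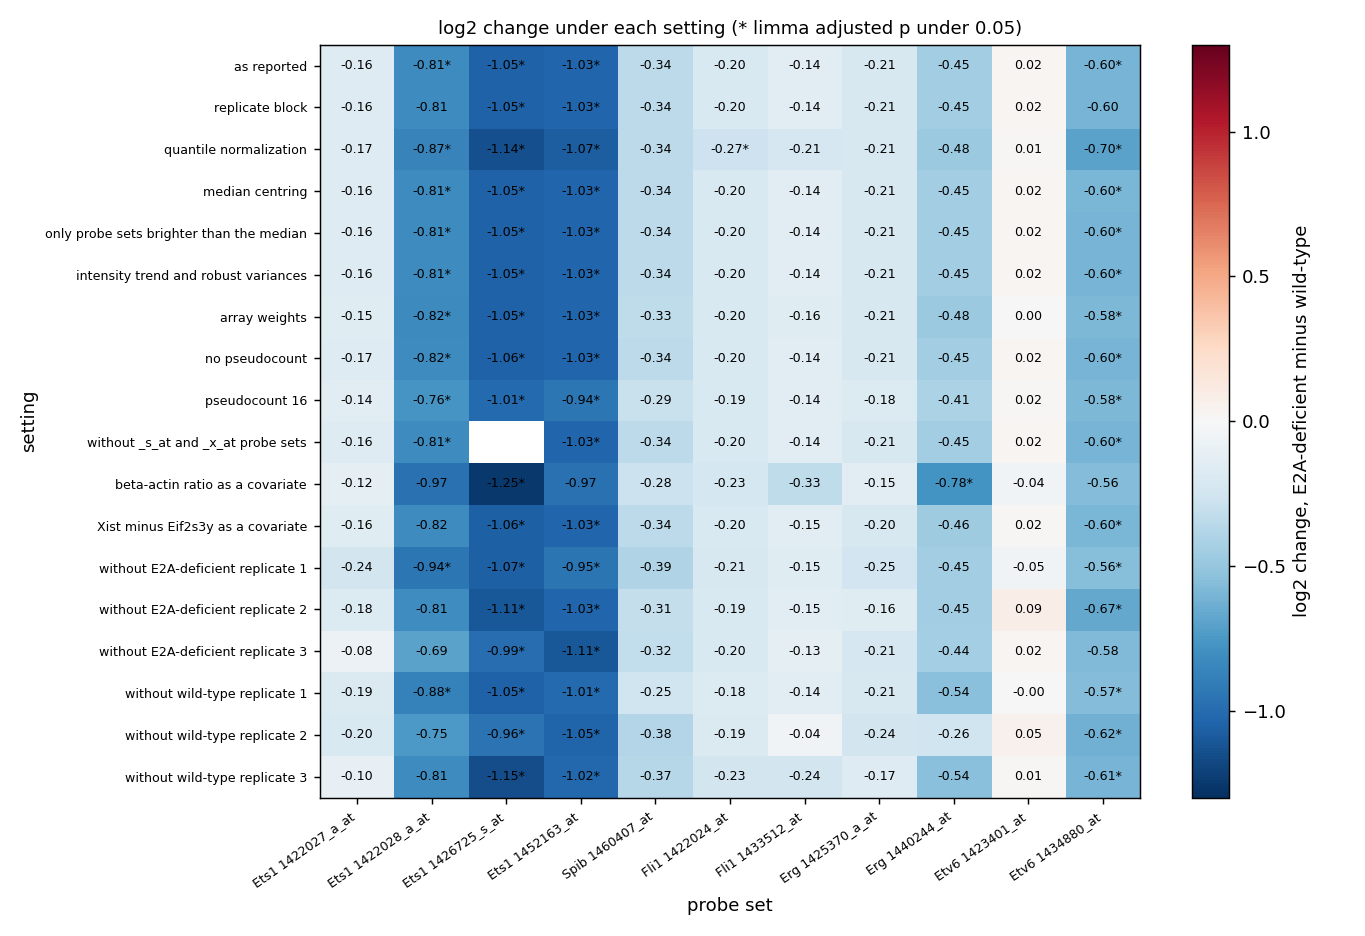
log2 change, E2A deficient minus wild type (colour and printed value), of the probe sets of Ets1, Spib, Fli1, Erg and Etv6 (x axis) under each processing setting (y axis), with an asterisk where the limma adjusted p was under 0.05 and a blank where the setting leaves the probe set out. Ets1 probe set 1426725_s_at passed wherever it was kept, with changes of -1.25 to -0.96, and 1452163_at passed everywhere except with the beta-actin covariate.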

How the data were processed

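Linear intensities per probe set were deposited by the authors as 1 table for 6 arrays. Per the submitters' processing notes they were made with RMA, and the sources used here do not say how its values were returned to the linear scale. Per the labels' protocols, RNA of sorted cells was amplified with a repeated in vitro transcription, which reads mostly 3' ends. From the deposited intensities, log2(intensity + 1) was computed, with no further normalization and no filter. The 64 control probe sets were left out, and 45037 were tested in limma 3.58.1 (R 4.3.3), group only, two-sided, adjusted by Benjamini-Hochberg at 0.05. A second fit took the brightest probe set of each of 18193 genes. Intervals are 95% from the moderated fit. Precision is limited by 3 arrays per group, and p-values measure the spread between these samples, since the labels name no separate animals. Same-numbered arrays did not vary together (correlations of deviations 0.0413, 0.0414 and -0.0360), and the main fit did not pair them. Low correlations cannot show that same-numbered arrays were handled apart, and a block by number was fitted as an alternative. All 19 member probe sets were found in the RefSeq gene table by Entrez identifier.

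In 10 simulations over 45037 probe sets of this comparison, 50.1% of log2 changes of 0.5, 87.5% of 1 and 98.8% of 2 were recovered, and 5.49% of calls were false. Each simulation changed 201 probe sets drawn at random, bright or dim, while 804 were called in the data. Recovery among the members may therefore differ from these shares. The rule named all members by all probe sets, list genes with a called probe set, Tcf3 and the 5 nearest profiles. The members and lists were chosen with earlier results of these data known. The alternatives were the replicate block, each array left out, quantile normalization, median centring, brighter probe sets only, array weights, variances fitted robustly with a trend on intensity, other pseudocounts, no _s_at or _x_at probe sets, the beta-actin ratio and a sex-linked ratio as covariates, and all probe sets of a gene averaged. Figures were drawn with matplotlib 3.10.9.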

Additional observations from a re-analysis of the deposited data

How the results depend on the processing

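Of the 4 member probe sets that fell, 2 remained called with the replicate block, both of Ets1, while Etv6 probe set 1434880_at (limma adjusted p = 0.0517, range over its alternatives 0.00855 to 0.170) and Ets1 probe set 1422028_a_at (0.0731) missed the threshold, 2 member probe sets were called lower with the beta-actin covariate (1 of Ets1 and 1 of Erg), and between 2 and 4 were when 1 array was left out. The genes of the 5 linked lists gave 5 higher and 2 lower as reported, 3 higher with the replicate block, 0 higher (9 at an unadjusted p under 0.05 by limma) and 1 lower with the beta-actin ratio, and 3 to 4 higher and 1 to 2 lower with 1 array left out. In the fit per gene 2 members fell with any 1 array left out. Ets1 passed there under all of its 10 alternatives and Etv6 under 9 of 10, with a highest limma adjusted p of 0.125 for Etv6. Over all probe sets 804 were called as reported, 471 with the replicate block, 114 with the beta-actin ratio and 358 to 563 with 1 array left out, where fewer arrays were fitted. The replicate block left the log2 changes of the member probe sets as they were. Only wild-type replicate 2 had the beta-actin ratio of the E2A-deficient arrays, so that covariate and genotype can hardly be told apart. With it Ets1 probe sets 1426725_s_at, 1452163_at and 1422028_a_at changed by -1.25, -0.97 and -0.97, against -1.05, -1.03 and -0.81 as reported. Etv6 probe set 1434880_at changed by -0.56, against -0.60. The cause of the other shifts was not tested. No called value changed direction. Values near 0 did: Etv6 probe set 1423401_at was -0.041 with the beta-actin ratio and -0.048 to 0.091 with 1 array left out, and Elf1 was -0.11 with the mean of its probe sets. With 1 array left out, Ets2 probe set 1416268_at ranged from -0.26 to 0.11, Elf1 probe set 1417540_at from -0.067 to 0.19 and Gabpa probe set 1450664_at from -0.13 to 0.037. With the sex-linked ratio as a covariate Ets1 probe set 1422028_a_at missed the threshold (limma adjusted p = 0.0540, range over its alternatives 0.00822 to 0.131), and the other 3 called member probe sets passed. Changes of about 0.5 were recovered in 50.1% of simulated cases, so the members that did not pass are not shown to be unaffected.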
